A study of Mus musculus with 12 samples.

Results

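Intracranial melanoma tumors that held many CD8+ T cells after immune checkpoint blockade (CD8H) were compared with tumors of mice given control antibody (IgG). The comparison used 6 of the 12 libraries of the series, 3 CD8H and 3 IgG tumors, taken by their sample labels. The count table listed 54532 genes, of which 17320 had enough counts to be tested. Wild-type C57Bl6 mice, male and female, carried B16-OVA melanoma under the skin of the flank and received B16-OVA/Fluc cells in the striatum 3 days later, so that both groups had a tumor outside the brain. B16-OVA is a mouse melanoma cell line that expresses ovalbumin, and Fluc is firefly luciferase, which allows tumor size to be followed by bioluminescence. IgG mice received immunoglobulin, and CD8H mice received antibodies against PD-1 and CTLA-4 (PC blockade), given on days 5 and 7 after the intracranial implantation in the submitters' design text and 1 day earlier for each dose in the study's methods. Tumors were taken on day 8, from 3 separate mice per group, and mRNA of the dissociated bulk tumor was sequenced. Treated mice had been divided afterwards into CD8H and CD8L tumors by how many CD8+ T cells their tumors held. CD8H is therefore a chosen part of the treated mice, and higher T cell transcripts in it are no independent evidence of an effect of the antibodies. The remaining 6 libraries came from CD8L tumors and from PC-treated tumors of mice depleted of NK cells (ΔNK), and they entered the same fit. The sex of each mouse was not given in the labels.

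PD-1 and CTLA-4 are receptors that restrain T cells, and blocking them lets T cells that recognize a tumor expand and act. CD8+ T cells kill target cells with perforin and granzymes and release interferon gamma. Interferon gamma acts through the kinases JAK1 and JAK2 and induces guanylate-binding proteins, MHC molecules and the chemokines CXCL9, CXCL10 and CXCL11, which attract further T cells through CXCR3.

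Total counts were between 16336993 and 26416214 over the 12 libraries, between 16977351 and 21288843 in the IgG tumors and between 19060520 and 22440107 in the CD8H tumors. Levels are counts scaled to a common library total (CPM) after TMM normalization and are given for tumors 1, 2 and 3 of each group, in that order. Melanocyte lineage transcripts were abundant in all 6 tumors. The premelanosome protein gene Pmel had 3353, 2651 and 3285 CPM in IgG and 3691, 1676 and 3052 CPM in CD8H tumors. Brain tissue was present in unequal amounts. Over 18 neuron markers the mean log2 CPM was 2.36, 5.60 and 5.15 in IgG and 2.34, 6.74 and 3.93 in CD8H tumors, so that CD8H tumor 2 had the highest neuron level and tumor 1 of each group the lowest. A fit with the neuron level as a covariate called 1625 genes, among them all 129 genes called below without it. The part of brain tissue in the calls was not tested.

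**Figure D1:**
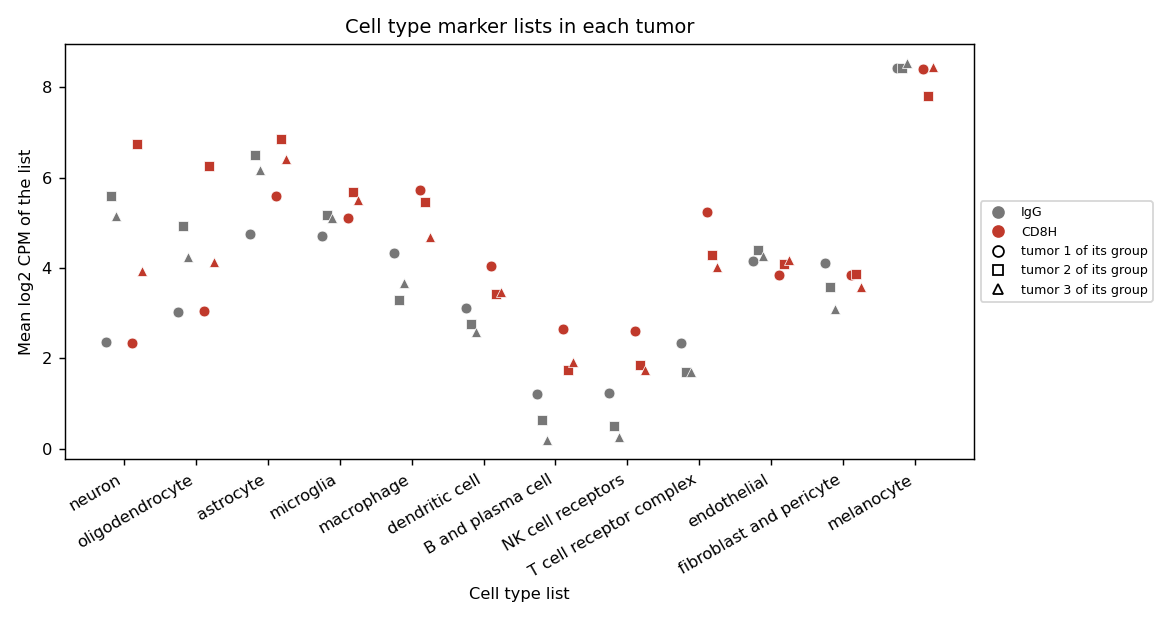
Mean log2 CPM of the tested members of 12 cell type lists (y axis) in each of the 3 IgG (grey) and 3 CD8H (red) tumors, with 1 symbol shape per tumor number. The T cell receptor, NK cell receptor, B and plasma cell, macrophage and dendritic cell lists were higher in every CD8H than in every IgG tumor. The neuron, oligodendrocyte, astrocyte, microglia, endothelial, fibroblast and melanocyte lists overlapped between the groups.

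Between CD8H and IgG tumors 129 of 17320 genes (0.745%) were called by edgeR's quasi-likelihood test with thresholds of 0.05 for both the p and the p adjusted after Benjamini and Hochberg. Expression was higher in CD8H tumors for 100 of them (0.577% of tested genes) and lower for 29 (0.167%). The calls lay at the edge of the threshold, since each of the 129 had the smallest adjusted p found over all genes, 0.049, at unadjusted p-values from 6.53e-06 to 0.000365. In all, 388 genes had an adjusted p of at most 0.06. The median log2 fold change was 1.80 over the 100 higher genes, -0.91 over the 29 lower ones and 0.06 over all tested genes. No called gene overlapped between the groups. Over all tested genes, 2475 (14.3%) lay above every IgG tumor in every CD8H tumor and 2293 (13.2%) lay below. Each count of list members without overlap given below is to be read against these shares. The lowest CD8H tumor had at least 2 times the highest IgG level for 54 of the 100 higher genes, against 362 of all genes (2.09%). Among the 29 lower genes the highest CD8H tumor had at most 1/2 of the lowest IgG level for 2, Hapln1 and Kcnq1, against 9 of all genes (0.052%).

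Within the groups the tumors were ordered alike for many genes. CD8H tumor 1 was the highest of its group in 86 of the 100 higher genes and CD8H tumor 3 the lowest in 90. IgG tumor 1 was the highest IgG tumor in 77 of them. CD8H tumor 3 was also the CD8H tumor closest to the controls among the 29 lower genes, being the highest of its group in 22. The number of calls depended on single libraries. It was 0 by edgeR when any 1 of IgG tumors 1, 2 or 3 or CD8H tumors 1 or 2 was left out, with 2121 to 3173 genes at an unadjusted p of 0.05 or less, and 225 without CD8H tumor 3. DESeq2 called 2088 genes and limma voom 2606, both including all 129.

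**Figure D2:**
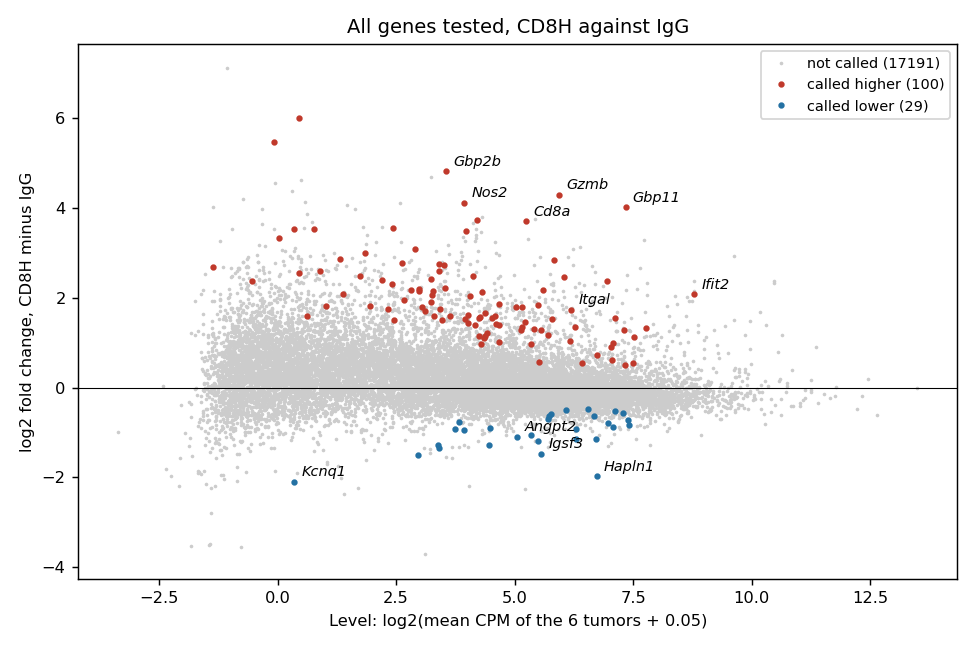
All 17320 tested genes by mean level over the 6 tumors (x axis, log2 CPM) and log2 fold change of CD8H over IgG tumors (y axis), with the 100 genes called higher in red and the 29 called lower in blue. The called rises reached larger fold changes than the called falls.

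T cell genes were among the largest rises. Cd8a, the alpha chain of the CD8 coreceptor (ENSMUSG00000053977, chromosome 6, 71373427 to 71379173), had 8.56, 4.08 and 3.55 CPM in IgG and 124, 52.9 and 34.3 CPM in CD8H tumors. The lowest CD8H tumor had 4.01 times the highest IgG level, and the gene was called at a log2 fold change of 3.71 ± 0.70. In all values of this kind the ± is a standard error derived from edgeR's F statistic. It came from the fit of all 12 libraries, with 3 tumors per group. Its partner chain Cd8b1 had a similar fold change of 3.81 ± 0.80 and an adjusted p of 0.0529 in edgeR's test, just past the threshold. In both genes all 3 CD8H tumors lay above all 3 IgG tumors. Since the CD8H tumors were selected by CD8+ T cell abundance, higher levels of these genes in them are no finding. The labels divide the treated tumors and give no CD8+ T cell level for the IgG tumors.

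Of the 25 genes of the T cell receptor complex and its proximal signaling, 24 lay above every IgG tumor in every CD8H tumor and 2 were called by edgeR, Cd8a and Lat. DESeq2 called 22 of the 25 higher and limma voom 23. The other 22 of the 24 and Thy1, which overlapped, had adjusted p-values of 0.0526 to 0.484 in edgeR's test. Lat, the adaptor on which the signal of the receptor is assembled, had 3.65, 2.61 and 1.91 CPM in IgG and 28.9, 13.8 and 12.6 CPM in CD8H tumors and rose by 2.76 ± 0.44 on the log2 scale. The invariant and constant chains of the receptor were not called by edgeR. Cd3e, an invariant chain of the receptor, had 4.86, 1.36 and 2.52 CPM in IgG and 44.8, 21.4 and 18 CPM in CD8H tumors, with a log2 fold change of 3.26 ± 0.74 and an edgeR adjusted p of 0.0583. Zap70, the kinase recruited to the receptor, had a log2 fold change of 2.67 ± 0.59 and an adjusted p of 0.0568. Themis, which tunes receptor signaling in developing T cells, was outside the list and called, with 1.17, 0.736 and 0.607 CPM in IgG and 16.7, 6.95 and 6.09 CPM in CD8H tumors and a log2 fold change of 3.56 ± 0.53. A variable segment was called as well. Trbv2, a segment of the beta chain, had 2 counts in the 3 IgG libraries together and 167 in the 3 CD8H libraries, a depth-adjusted ratio of 75.9 (exact 95% interval 20.7 to 632, counting error only). The CD4 coreceptor gene Cd4 was higher by a smaller amount, with 4.61, 8.95 and 7.98 CPM in IgG and 23, 22.7 and 13.8 CPM in CD8H tumors (log2 fold change 1.47 ± 0.70, edgeR adjusted p = 0.289). In bulk RNA more cells of a type and more RNA per cell cannot be told apart.

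Genes of the killing machinery lay higher, and 3 of them were called. Gzmb, the granule protease granzyme B (ENSMUSG00000015437, chromosome 14, 56258838 to 56262260), had 9.22, 4.25 and 4.25 CPM in IgG and 191, 118 and 40.5 CPM in CD8H tumors. CD8H tumor 3 had 4.39 times and tumor 1 20.7 times the highest IgG level, and the log2 fold change was 4.30 ± 0.77. Ctsw, a cysteine protease of CD8+ T and NK cells, rose from 8.51, 4.08 and 3.08 CPM in IgG to 47.6, 21.1 and 19.2 CPM in CD8H tumors, by 2.49 ± 0.48 on the log2 scale. Gzmf, one of a cluster of closely related granzymes, was called with 2 counts in the IgG and 116 in the CD8H libraries, a ratio of 52.7 (exact 95% interval 14.3 to 440, counting error only). Its neighbour Gzmd, not called, had 0 counts in the IgG and 52 in the CD8H libraries, at least 15.8-fold higher against a floor of 3 counts over the group. Reads of these near-identical genes may have been divided between them in the counting.

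The other effectors lay above the controls without being called. Prf1 encodes perforin, which opens the target cell membrane, and had 5.27, 2.55 and 2.33 CPM in IgG and 53.7, 29.6 and 14.3 CPM in CD8H tumors (log2 fold change 3.26 ± 0.69, edgeR adjusted p = 0.0539). Ifng, the interferon gamma gene itself, had 1.87, 0.906 and 0.700 CPM in IgG and 14.7, 12.5 and 5.69 CPM in CD8H tumors (log2 fold change 3.23 ± 0.85, edgeR adjusted p = 0.079). In both genes every CD8H tumor exceeded every IgG tumor by at least 2 times. Of the 16 tested cytotoxic effectors, 14 did not overlap, 3 were called and the median log2 fold change was 2.55, or 2.01 without CD8H tumor 1. Rab27a, which docks granules for release and also carries melanosomes in pigment cells, overlapped between the groups (log2 fold change -0.39 ± 0.19, edgeR adjusted p = 0.301), as did Gzmm.

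Of 20 tested checkpoint and costimulation genes 3 were called. The cells that carried their transcripts were not tested. Havcr2, which encodes the checkpoint TIM-3, had 13.4, 9.40 and 12.8 CPM in IgG and 44.1, 36.7 and 27.4 CPM in CD8H tumors and rose by 1.60 ± 0.24 on the log2 scale. Entpd1, the ectonucleotidase CD39 that degrades extracellular ATP, had 31.2, 23.3 and 30.7 CPM in IgG and 93.7, 94.1 and 58.5 CPM in CD8H tumors, a log2 fold change of 1.53 ± 0.26. Tnfrsf4, the costimulatory receptor OX40, rose from 2.99, 2.49 and 2.19 CPM to 13.7, 9.15 and 7.06 CPM, by 1.96 ± 0.35 on the log2 scale. The targets of the treatment were not called. Pdcd1, which encodes PD-1, had 3.65, 1.42 and 2.43 CPM in IgG and 57.4, 21.8 and 16.9 CPM in CD8H tumors (log2 fold change 3.68 ± 0.80, edgeR adjusted p = 0.0559). Its ligand gene Cd274 had 92.9, 54.4 and 58.6 CPM in IgG and 379.9, 341 and 221 CPM in CD8H tumors (log2 fold change 2.19 ± 0.49, edgeR adjusted p = 0.0569). Ctla4 had 3.95, 2.32 and 1.96 CPM in IgG and 27.7, 18.7 and 18.2 CPM in CD8H tumors (log2 fold change 2.97 ± 0.94, edgeR adjusted p = 0.121). All 3 lay above every IgG tumor in every CD8H tumor, as did 19 of the 20 tested members of this list, whose median log2 fold change was 2.11, or 1.69 without CD8H tumor 1.

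**Figure D3:**
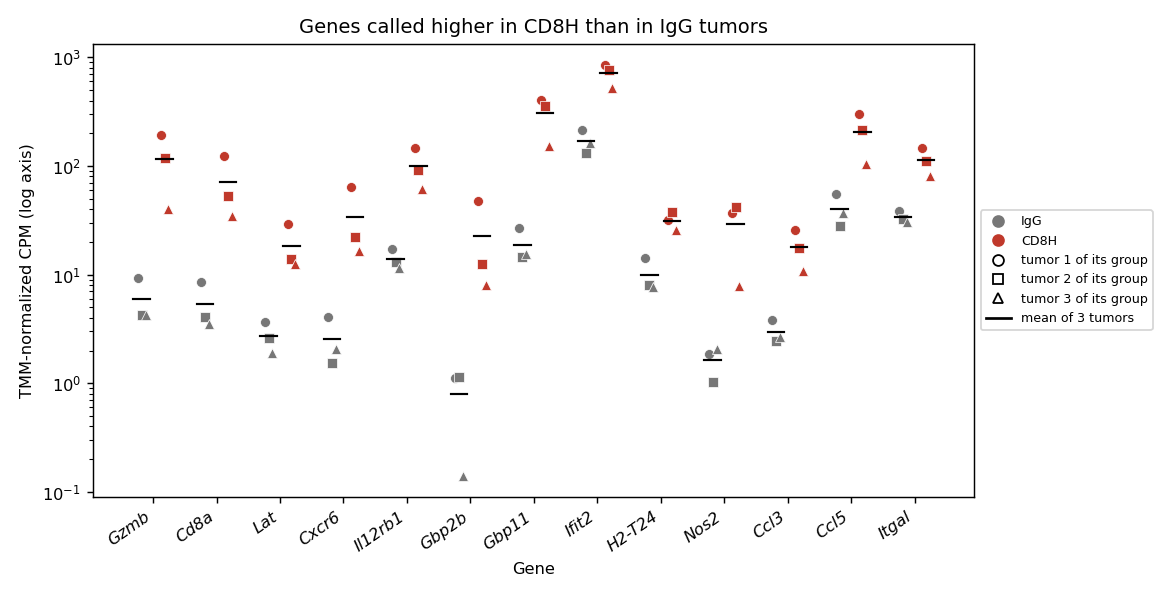
TMM-normalized CPM (log axis) of 13 genes called higher in CD8H than in IgG tumors, with 1 point per tumor, 1 shape per tumor number and a line at the mean of 3 tumors. Every CD8H point lies above every IgG point of its gene, and CD8H tumor 3 is the lowest CD8H point in all 13 genes.

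Of the transcription factors of lymphocytes 1 was called. Prdm1, which encodes BLIMP1, a factor of terminal effector cells, had 3.60, 2.27 and 1.77 CPM in IgG and 15.3, 12.4 and 6.85 CPM in CD8H tumors and rose by 2.18 ± 0.36 on the log2 scale. Tbx21, which encodes the effector factor T-bet, was not called (log2 fold change 2.80 ± 0.66, edgeR adjusted p = 0.0636). Of 20 factors tested 13 (65%) lay above the controls without overlap, against 14.3% of all tested genes. The activation-induced Nr4a1 (5%) lay below, against 13.2%. In the list of regulatory T cell markers the OX40 gene and Ikzf2 were called. Ikzf2, which encodes the factor HELIOS, had 16.6, 10.03 and 12.4 CPM in IgG and 33, 26.1 and 26.9 CPM in CD8H tumors (log2 fold change 1.14 ± 0.19). Foxp3, which defines regulatory T cells, had 3.04, 1.81 and 1.17 CPM in IgG and 8.87, 7.49 and 9.09 CPM in CD8H tumors. It was not called (log2 fold change 2.08 ± 0.60, edgeR adjusted p = 0.0984). In ΔNK tumors Ikzf2 had 10.6, 10.3 and 9.92 CPM and Foxp3 1.37, 0.303 and 0.783 CPM. The cells that carried Ikzf2 were not tested.

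NK cell receptors divided by gene. The lectin receptor genes Klrd1 and Klrc1, which encode CD94 and NKG2A and are used by NK cells and activated CD8+ T cells, had log2 fold changes of 2.84 ± 0.62 and 3.34 ± 0.78 at edgeR adjusted p-values of 0.0559 and 0.0618. Ncr1, which encodes NKp46 and is largely confined to NK cells and related innate lymphocytes, had 2.58, 2.21 and 1.07 CPM in IgG and 4.15, 1.79 and 1.93 CPM in CD8H tumors. Its groups overlapped, and the log2 fold change was 0.42 ± 0.61 (edgeR adjusted p = 0.768). Klrb1c, which encodes NK1.1, also overlapped, with 3.14, 1.98 and 2.38 CPM in IgG and 3.62, 2.37 and 2.49 CPM in CD8H tumors. Of 23 tested NK receptors 17 did not overlap, all higher. None was called by edgeR, with 12 at an unadjusted p of 0.05 or less, while DESeq2 called 11 and limma voom 14.

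A B cell gene was also called. Ms4a1, which encodes CD20, rose, with 11 counts in the IgG and 142 in the CD8H libraries, a ratio of 11.7 (exact 95% interval 6.36 to 24, counting error only). Cd79a, part of the B cell receptor, had 0.912, 0.397 and 0.420 CPM in IgG and 3.72, 1.62 and 2.03 CPM in CD8H tumors (log2 fold change 2.08 ± 0.55, edgeR adjusted p = 0.079). The plasma cell genes Jchain and Mzb1 overlapped between the groups. Of 16 tested B and plasma cell markers 12 (75%) lay above the controls without overlap, against 14.3% of all tested genes. Sdc1 (6.25%) lay below, against 13.2%.

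Interferon gamma-induced genes lay higher in CD8H tumors almost throughout. Of the 32 tested, 31 lay above every IgG tumor in every CD8H tumor, 25 reached an unadjusted p of 0.05 or less (10.7% of all tested genes, in this direction) and 3 were called, Gbp2b, Gbp11 and Jak2. The median log2 fold change was 1.61. The exception was Ifngr2, a chain of the receptor, which overlapped. Gbp2b, a guanylate-binding protein that attacks vacuoles of intracellular microbes (ENSMUSG00000040264, chromosome 3, 142594847 to 142619179), had 1.11, 1.13 and 0.140 CPM in IgG and 47.1, 12.5 and 8.07 CPM in CD8H tumors. Its log2 fold change of 4.83 ± 0.93 was the largest among called genes whose mean log2 CPM was 0 or more. Gbp11, annotated as a polymorphic pseudogene, had 26.7, 14.5 and 15.4 CPM in IgG and 408, 355 and 154 CPM in CD8H tumors, a log2 fold change of 4.02 ± 0.67. The guanylate-binding protein genes are similar to one another in sequence, and reads may have been divided between them. Jak2, the kinase of the interferon gamma receptor, rose by 0.72 ± 0.13 on the log2 scale, from 86, 72.5 and 83.9 CPM to 148, 138 and 113 CPM, with a small spread in both groups.

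The regulatory windows of 4 genes of this list or its chemokines show the elements through which interferon is known to act. The 250 bases before the start site are printed 5′ to 3′ on the gene's strand, from RefSeq on GRCm38.p6, for Gbp2b (chr3:142594597-142594846, plus strand), Gbp5 (chr3:142496684-142496933, plus strand), Igtp (chr11:58199306-58199555, plus strand) and Cxcl10 (chr5:92348890-92349139, minus strand). Capitals mark matches on either strand to GAAA followed by any 2 bases and GAAA, the core of the interferon-stimulated response element bound by ISGF3 and IRF factors, and to TTCNNNGAA, the interferon gamma-activated site or GAS element.
Gbp2b: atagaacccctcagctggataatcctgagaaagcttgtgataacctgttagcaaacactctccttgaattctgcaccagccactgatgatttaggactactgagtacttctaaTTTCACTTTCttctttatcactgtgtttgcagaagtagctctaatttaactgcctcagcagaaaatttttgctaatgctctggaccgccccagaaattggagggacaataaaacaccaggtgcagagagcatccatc
Gbp5: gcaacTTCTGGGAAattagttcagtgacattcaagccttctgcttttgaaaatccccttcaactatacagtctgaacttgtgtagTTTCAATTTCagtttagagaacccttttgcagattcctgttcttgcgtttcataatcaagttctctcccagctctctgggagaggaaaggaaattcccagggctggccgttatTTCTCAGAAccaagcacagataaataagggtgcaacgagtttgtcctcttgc
Igtp: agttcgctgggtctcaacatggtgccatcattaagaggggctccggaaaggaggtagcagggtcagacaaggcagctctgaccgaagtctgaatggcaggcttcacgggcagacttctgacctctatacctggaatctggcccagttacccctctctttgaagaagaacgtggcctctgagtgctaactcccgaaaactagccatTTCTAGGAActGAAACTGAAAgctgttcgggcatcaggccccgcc
Cxcl10: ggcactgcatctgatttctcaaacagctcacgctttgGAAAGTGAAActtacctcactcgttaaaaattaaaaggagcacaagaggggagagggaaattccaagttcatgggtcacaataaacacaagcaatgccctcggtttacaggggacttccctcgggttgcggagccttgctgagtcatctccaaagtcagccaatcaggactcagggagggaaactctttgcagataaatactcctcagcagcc
The Gbp2b window held 1 response element match beginning 137 bases before the start. Gbp5 held 1 at 165 bases, between GAS matches at 245 and 52 bases. In Igtp a GAS match at 45 bases was followed by a response element match at 34 bases. Cxcl10 held 1 response element match at 213 bases and no GAS match in these letters. Of the 20 interferon gamma-induced genes with a RefSeq window of 300 bases, from 250 before to 50 after the start, 12 (60%) held the response element core and 8 (40%) a GAS match, against 3.99% and 9.55% of the 27025 genes with a window. Of the 100 genes called higher 80 had a window, and 6 (7.5%) held each element. The list was written from genes known to respond to interferon, and a match describes letters in a window, not a bound site. The 3 genes beside Gbp2b were not called. Gbp5 had 66.5, 37.4 and 45.4 CPM in IgG and 318, 336 and 194 CPM in CD8H tumors (log2 fold change 2.50 ± 0.71, edgeR adjusted p = 0.0937). Igtp, an immunity-related GTPase, had 879, 561 and 641 CPM in IgG and 2257, 1620.3 and 1586 CPM in CD8H tumors (log2 fold change 1.39 ± 0.75, edgeR adjusted p = 0.357).

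Irf1, a transcription factor induced by interferon gamma, had 388, 179 and 214 CPM in IgG and 902, 559 and 585 CPM in CD8H tumors (log2 fold change 1.39 ± 0.59, edgeR adjusted p = 0.228). Socs1, the feedback inhibitor of JAK kinases, had 12.2, 7.87 and 7.60 CPM in IgG and 60.3, 41.2 and 28.9 CPM in CD8H tumors (log2 fold change 2.24 ± 0.64, edgeR adjusted p = 0.0947). Ido1, which degrades tryptophan and restrains T cells, had 0.709, 1.02 and 1.82 CPM in IgG and 9.39, 11.8 and 2.79 CPM in CD8H tumors (log2 fold change 2.75 ± 0.76, edgeR adjusted p = 0.087). None of these 3 overlapped between the groups. Among 28 genes known for induction by type I interferon, 22 lay above the controls without overlap and 1 was called. Ifit2, which binds foreign RNA and blocks its translation, had 215, 130.2 and 162 CPM in IgG and 857, 771 and 524 CPM in CD8H tumors and rose by 2.08 ± 0.26 on the log2 scale. The median of that list was 1.00, and Irf9, part of ISGF3, overlapped (log2 fold change 0.22 ± 0.30, edgeR adjusted p = 0.755).

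Antigen presentation genes lay higher for both MHC classes. H2-T24, a non-classical class I gene, was the 1 called member of 23 class I presentation genes, with 14.1, 8.10 and 7.74 CPM in IgG and 31.5, 37.3 and 25.6 CPM in CD8H tumors (log2 fold change 1.66 ± 0.31). The class I genes are similar in sequence and their reads may have been divided. B2m, the light chain shared by class I molecules, had 2078, 1399 and 1991 CPM in IgG and 4436, 2888 and 2979 CPM in CD8H tumors (log2 fold change 0.91 ± 0.41, edgeR adjusted p = 0.257). Psmb8, an immunoproteasome subunit that trims antigen, had 70.9, 32.2 and 41 CPM in IgG and 288, 149 and 139 CPM in CD8H tumors (log2 fold change 2.00 ± 0.55, edgeR adjusted p = 0.0893). In all, 20 of the 23 did not overlap, and the 3 that did, Canx, Calr and Pdia3, encode general chaperones of the endoplasmic reticulum. All 13 class II presentation genes lay above the controls without overlap, at a median log2 fold change of 2.05, and all 13 reached an unadjusted p of 0.05 or less. None was called by edgeR, 10 by DESeq2 and 10 by limma voom. Cd74, the invariant chain that guides class II molecules to the endosome, had 663, 365 and 399 CPM in IgG and 3498, 2108 and 1524 CPM in CD8H tumors (log2 fold change 2.32 ± 0.68, edgeR adjusted p = 0.101). IgG tumor 1 stood above the other controls, and CD8H tumor 1 above the other CD8H tumors.

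**Figure D4:**
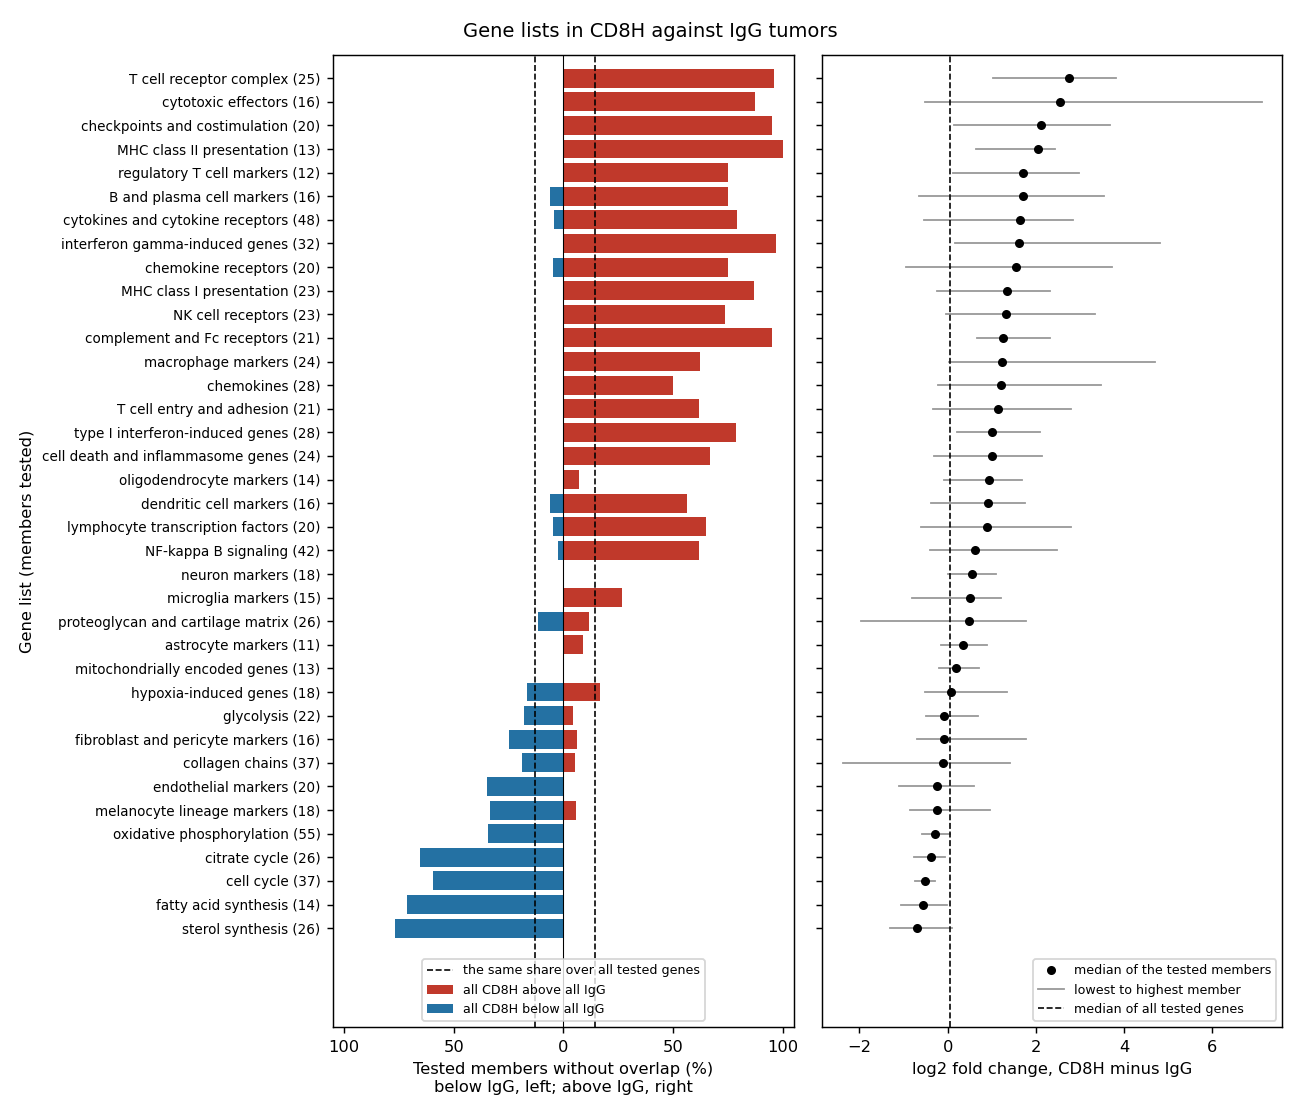
Share of the tested members of each gene list shown whose CD8H tumors all lay above (red, right) or below (blue, left) all IgG tumors (left panel), and the median and range of the members' log2 fold changes (right panel). The neutrophil, ependymal and choroid plexus, erythroid and sex-linked lists had few tested members and are left out. Dashed lines give the same values over all 17320 tested genes, 14.3% above, 13.2% below and a median of 0.06.

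Chemokine genes gave 2 calls among 28 tested, Ccl5 and Ccl3. Ccl5, made by activated T cells among others, had 55.4, 28.2 and 36.6 CPM in IgG and 301, 216 and 104 CPM in CD8H tumors and rose by 2.37 ± 0.44 on the log2 scale. Ccl3, which also attracts monocytes, had 3.80, 2.44 and 2.66 CPM in IgG and 25.6, 17.6 and 10.9 CPM in CD8H tumors, a log2 fold change of 2.6 ± 0.44. Ccl4, a close relative of Ccl3, had a log2 fold change of 3.02 ± 0.66 at an edgeR adjusted p of 0.0559. The CXCR3 ligands lay higher without a call. Cxcl9 had 206, 102 and 118 CPM in IgG and 966, 765 and 498 CPM in CD8H tumors (log2 fold change 2.39 ± 0.85, edgeR adjusted p = 0.161), and Cxcl10 had 555, 327 and 351 CPM and 1535, 1016 and 952 CPM (log2 fold change 1.51 ± 0.57, edgeR adjusted p = 0.18). Per length, on the authors' FPKM scale, Cxcl10 was the more abundant of the pair in every tumor, with 454, 271 and 282 FPKM in IgG and 1195, 867 and 784 FPKM in CD8H tumors against 129.6, 65.4 and 73 and 579, 503 and 316 FPKM for Cxcl9.

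Cxcl16, the ligand of CXCR6, had 29.4, 14.3 and 18.9 CPM in IgG and 83.6, 63.6 and 49.95 CPM in CD8H tumors (log2 fold change 1.65 ± 0.44, edgeR adjusted p = 0.0798). Its groups did not overlap. Ccl22, a CCR4 ligand made by dendritic cells, had 8.97, 7.02 and 7.93 CPM in IgG and 35.5, 8.24 and 10.6 CPM in CD8H tumors, so that only CD8H tumor 1 stood clearly above the controls (log2 fold change 1.18 ± 0.68, edgeR adjusted p = 0.391). Ccl19, a CCR7 ligand, had 2 counts in the IgG and 5 in the CD8H libraries and was not tested. Over the list 14 of 28 chemokines did not overlap, all higher in CD8H tumors, while the homeostatic ligands Cxcl12 and Cxcl14 overlapped.

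Among chemokine receptors Cxcr6 was called. Cxcr6, a receptor of tissue-resident and effector T cells (ENSMUSG00000048521, chromosome 9, 123806475 to 123811760) had 4.10, 1.53 and 2.05 CPM in IgG and 64, 22 and 16.5 CPM in CD8H tumors. The lowest CD8H tumor had 4.02 times the highest IgG level, and the log2 fold change was 3.73 ± 0.58. Cxcr3 differed less, with 6.13, 3.91 and 2.47 CPM in IgG and 15.3, 6.95 and 9.85 CPM in CD8H tumors (log2 fold change 1.36 ± 0.44, edgeR adjusted p = 0.131). Ccr7, which guides naive T cells and mature dendritic cells to lymph nodes, had 10.3, 4.81 and 5.83 CPM and 27.4, 12.8 and 11 CPM (log2 fold change 1.28 ± 0.77, edgeR adjusted p = 0.415). Of 20 tested receptors 15 (75%) lay above the controls without overlap, against 14.3% of all tested genes. Ccr10 (5%) lay below, against 13.2%.

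Among 21 genes of T cell entry and adhesion 1 was called. Itgal, the alpha chain of the integrin LFA-1 (ENSMUSG00000030830, chromosome 7, 127296260 to 127335138), had 38.1, 32.3 and 30.7 CPM in IgG and 147, 110.4 and 80.7 CPM in CD8H tumors and rose by 1.74 ± 0.21 on the log2 scale. Its beta chain gene Itgb2 had 94.9, 72.2 and 86.9 CPM and 250.2, 214 and 144 CPM, at a log2 fold change of 1.26 ± 0.25 and an edgeR adjusted p of 0.0502. Icam1, the ligand of LFA-1 on endothelium and other cells, had 20.3, 13.3 and 15.8 CPM in IgG and 62.8, 48.5 and 32.8 CPM in CD8H tumors (log2 fold change 1.54 ± 0.43, edgeR adjusted p = 0.0902). Vcam1, which binds the integrin VLA-4, had 22.2, 23.5 and 24.2 CPM in IgG and 96.3, 94.8 and 53.7 CPM in CD8H tumors (log2 fold change 1.81 ± 0.57, edgeR adjusted p = 0.118). Neither overlapped. The endothelial selectin gene Sele and the VLA-4 chains Itga4 and Itgb1 overlapped between the groups.

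Cytokine receptor genes gave 2 calls among 48 tested cytokine and receptor genes. Il12rb1, a chain of the IL-12 and IL-23 receptors, had 17.1, 13 and 11.4 CPM in IgG and 145, 90.8 and 61.4 CPM in CD8H tumors and rose by 2.84 ± 0.52 on the log2 scale. Il2rg, the common gamma chain shared by the receptors of IL-2, IL-7 and IL-15, had 20.5, 11.7 and 15.8 CPM in IgG and 68.5, 55.7 and 42 CPM in CD8H tumors, a log2 fold change of 1.79 ± 0.30. Jak3, the kinase bound to that chain, was called too, with 23.1, 19.7 and 16.5 CPM and 71.2, 55.1 and 37 CPM (log2 fold change 1.46 ± 0.26), as was Cish, a feedback inhibitor induced by IL-2 and IL-15, with 3.80, 4.14 and 3.13 CPM and 16.8, 13.2 and 8.38 CPM (log2 fold change 1.79 ± 0.30). In the list 38 members (79.2%) lay above the controls without overlap, against 14.3% of all tested genes. The transforming growth factor genes Tgfb2 and Tgfb3 (4.17%) lay below, against 13.2%. Tnf had 3.14, 1.53 and 2.24 CPM in IgG and 15.5, 14.3 and 8.78 CPM in CD8H tumors (log2 fold change 2.48 ± 0.56, edgeR adjusted p = 0.0572).

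In NF-κB signaling the calls were Nfkbia and Traf5. Nfkbia, which encodes the inhibitor IκBα and is itself induced by the pathway, had 24.9, 17.3 and 19.1 CPM in IgG and 62.3, 47.5 and 39.2 CPM in CD8H tumors (log2 fold change 1.28 ± 0.23). Traf5, an adaptor of OX40 and related receptors, had 3.14, 1.59 and 2.05 CPM in IgG and 10.2, 7.32 and 5.48 CPM in CD8H tumors (log2 fold change 1.76 ± 0.34). The subunit gene Rela and the kinase genes Chuk and Ikbkg overlapped, and 26 of the 42 members lay above the controls.

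A macrophage activation gene was called. Nos2, the inducible nitric oxide synthase of activated macrophages (ENSMUSG00000020826, chromosome 11, 78920787 to 78960254), had 1.87, 1.02 and 2.05 CPM in IgG and 36.9, 42.1 and 7.87 CPM in CD8H tumors. CD8H tumors 1 and 2 had 18 and 20.5 times the highest IgG level and tumor 3 had 3.83 times, and the log2 fold change was 4.12 ± 0.66. Arg1, which consumes the same substrate, was not called and varied widely, with 1.77, 0 and 0.280 CPM in IgG and 35.6, 11.8 and 6.55 CPM in CD8H tumors (log2 fold change 4.70 ± 1.43, edgeR adjusted p = 0.111). The lineage markers Adgre1 and Cd68 had log2 fold changes of 1.04 ± 0.35 and 0.95 ± 0.31 at edgeR adjusted p-values of 0.141 and 0.133. The mean log2 CPM of the 24 macrophage markers was 4.33, 3.30 and 3.67 in IgG and 5.73, 5.47 and 4.69 in CD8H tumors, and 15 of the 24 did not overlap. Of 15 microglia markers 4 (26.7%) lay above the controls without overlap, against 14.3% of all tested genes. The microglia-specific P2ry12 and Tmem119 overlapped. The opsonin genes C1qa, C1qb and C1qc, made by macrophages and microglia, had log2 fold changes of 1.14, 1.18 and 1.14 at edgeR adjusted p-values of 0.122, 0.111 and 0.112, and 20 of 21 complement and Fc receptor genes lay above the controls. No member of the complement, microglia and dendritic cell lists was called by edgeR, with 19, 3 and 6 at an unadjusted p of 0.05 or less, while DESeq2 called 18, 2 and 4 and limma voom 19, 3 and 9, all higher. Clec9a, a marker of the dendritic cells that cross-present antigen, had 2.63, 1.25 and 1.07 CPM in IgG and 9.25, 2.91 and 4.57 CPM in CD8H tumors (log2 fold change 1.75 ± 0.51, edgeR adjusted p = 0.102).

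Genes of cell death and the inflammasome included 2 calls among 24. Casp4, the caspase that senses cytosolic lipopolysaccharide, had 27, 13.5 and 18.7 CPM in IgG and 92.8, 64.5 and 54.7 CPM in CD8H tumors (log2 fold change 1.84 ± 0.34). Aim2, a sensor of cytosolic DNA, had 5.98, 5.55 and 5.65 CPM in IgG and 19, 17.1 and 12.5 CPM in CD8H tumors (log2 fold change 1.5 ± 0.26). Bax and Bak1, which act at the mitochondrial membrane, overlapped. Also among the largest called rises were Ifitm1, which restricts virus entry, with 3.55, 2.44 and 1.77 CPM in IgG and 50.7, 22.2 and 13.9 CPM in CD8H tumors (log2 fold change 3.48 ± 0.67), the interferon-inducible Ifi214 with 1.27, 0.510 and 0.560 CPM and 7.10, 6.86 and 4.92 CPM (log2 fold change 3.00 ± 0.56), and the noncoding Arhgap27os3 with 0.760, 0.510 and 0.467 CPM and 5.10, 4.49 and 3.25 CPM (log2 fold change 2.87 ± 0.48). A further 2 genes known only by clone names were also among the 12 largest rises.

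The called falls included genes of matrix and vessels. Hapln1, the link protein that fastens proteoglycans to hyaluronan (ENSMUSG00000021613, chromosome 13, 89539796 to 89611652), had 213, 147 and 147 CPM in IgG and 37.5, 38.1 and 53.9 CPM in CD8H tumors. The highest CD8H tumor was below 1/2 of the lowest IgG tumor, and the gene fell by 1.97 ± 0.34 on the log2 scale. Xylt1, which starts the sugar chains of proteoglycans, had 163, 123 and 145 CPM in IgG and 49.1, 74.2 and 72.7 CPM in CD8H tumors (log2 fold change -1.14 ± 0.20). Nid2, a linker of basement membranes, had 50.3, 52.8 and 60.5 CPM in IgG and 25.6, 21.5 and 31.6 CPM in CD8H tumors (log2 fold change -1.05 ± 0.19). Hapln1 was the 1 member of the 26 tested proteoglycan and cartilage genes called by edgeR. DESeq2 called 1 higher and 3 lower and limma voom 2 higher and 2 lower. Most of the list went the other way, with 21 of the 26 at a positive log2 fold change and a median of 0.48. Without overlap 3 (11.5%) lay above the controls and 3 (11.5%) below, against 14.3% and 13.2% of all tested genes. The aggregating proteoglycans Vcan, Acan, Bcan and Ncan, which the link protein binds, overlapped between the groups.

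Angpt2, the angiopoietin that destabilizes vessels (ENSMUSG00000031465, chromosome 8, 18690263 to 18741562), had 42.4, 43.7 and 49.5 CPM in IgG and 19.8, 21 and 22.8 CPM in CD8H tumors, with a narrow spread in both groups, and fell by 1.09 ± 0.15 on the log2 scale. It was the 1 member of 20 endothelial markers called by edgeR, and DESeq2 and limma voom each called 2 lower. In all, 7 of the 20 (35%, against 13.2% of all tested genes) lay below every IgG tumor in every CD8H tumor and 0 above. Of the 20 markers 3 had a positive log2 fold change, and the median was -0.23. An unadjusted p of 0.05 or less was reached by 3, all lower. The pan-endothelial markers Pecam1 and Cldn5 overlapped, with log2 fold changes of -0.02 ± 0.12 and -0.03 ± 0.33 at edgeR adjusted p-values of 0.938 and 0.966. Tie1, an endothelial receptor kinase, had 18.7, 14.4 and 17.9 CPM in IgG and 11, 12.9 and 12.1 CPM in CD8H tumors (log2 fold change -0.50 ± 0.17, edgeR adjusted p = 0.138). Fzd4, a receptor that maintains the blood-brain barrier, was called outside the list, with 17.1, 21 and 22.4 CPM in IgG and 9.44, 9.48 and 12.5 CPM in CD8H tumors (log2 fold change -0.94 ± 0.18). The summed level of the endothelial list was 689, 718 and 690.2 CPM in IgG and 658, 598 and 674 CPM in CD8H tumors, with no defining marker at 0, and its part in these falls was not tested. Pdgfrb, the pericyte receptor, had 46.1, 40.4 and 40.4 CPM in IgG and 27.7, 26.6 and 28.7 CPM in CD8H tumors (log2 fold change -0.61 ± 0.13, edgeR adjusted p = 0.0545). The 16 fibroblast and pericyte markers lay on both sides of the controls. Without overlap 4 (25%) lay below, Pdgfrb, Rgs5, Notch3 and Acta2, against 13.2% of all tested genes. The contractile gene Tagln (6.25%) lay above, against 14.3%. In the list 8 had a positive log2 fold change, and the median was -0.08. None was called by edgeR, with 1 higher and 2 lower at an unadjusted p of 0.05 or less, while DESeq2 called 1 lower and limma voom 3.

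Collagen genes gave no call by edgeR among 37 tested. Of these 7 (18.9%) lay below the controls without overlap, against 13.2% of all tested genes, and 2 (5.41%) above, against 14.3%. At an unadjusted p of 0.05 or less there were 7, all lower, against 8.36% of all tested genes in this direction. DESeq2 called 6 lower, and limma voom called 3 lower and 1 higher. Col9a1, a chain of a cartilage collagen, had 76.7, 47.1 and 62.1 CPM in IgG and 15.3, 6.74 and 16.9 CPM in CD8H tumors (log2 fold change -2.26 ± 0.47, edgeR adjusted p = 0.0529). Col4a1, a main chain of basement membranes, had 315, 269 and 275 CPM in IgG and 161, 133 and 180.4 CPM in CD8H tumors (log2 fold change -0.86 ± 0.20, edgeR adjusted p = 0.0588). The fibrillar chains Col1a1, Col1a2 and Col3a1 overlapped between the groups. The list's median was -0.11 and became 0.34 without IgG tumor 1, whose collagen sum of 1767 CPM was the highest of the 6.

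Other called falls were spread over several functions. Kcnq1, a voltage-gated potassium channel (ENSMUSG00000009545, chromosome 7, 143106362 to 143427042), had 1.72, 1.93 and 2.33 CPM in IgG and 0.381, 0.541 and 0.457 CPM in CD8H tumors and fell by 2.10 ± 0.35 on the log2 scale, at a low level. Igsf3, an immunoglobulin superfamily membrane protein, had 67.1, 67.3 and 73.8 CPM in IgG and 16.4, 19.3 and 39.3 CPM in CD8H tumors (log2 fold change -1.48 ± 0.28). Cavin2, a coat protein of caveolae, had 28, 30.5 and 34.2 CPM in IgG and 12.1, 9.48 and 17 CPM in CD8H tumors (log2 fold change -1.27 ± 0.23). In Igsf3 and Cavin2 CD8H tumor 3 lay closest to the controls, and in Kcnq1 tumor 2 did. Cth, which makes cysteine from cystathionine, had 16.6, 14.1 and 13.6 CPM in IgG and 5.72, 4.45 and 8.17 CPM in CD8H tumors (log2 fold change -1.27 ± 0.24). Aldh1l2, a mitochondrial enzyme of folate metabolism, had 112, 96.6 and 116 CPM in IgG and 40.1, 38 and 69 CPM in CD8H tumors (log2 fold change -1.14 ± 0.21). Klf15, a transcription factor of glucose and amino acid metabolism, had 29.8, 27.7 and 29.4 CPM in IgG and 14.5, 13.4 and 19 CPM in CD8H tumors (log2 fold change -0.89 ± 0.14). The remaining members of the 12 largest falls were the prokineticin receptor gene Prokr1, the mitochondrial carrier gene Slc25a34 and Ldlrad3, with log2 fold changes of -1.49 ± 0.26, -1.35 ± 0.25 and -1.18 ± 0.21.

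**Figure D5:**
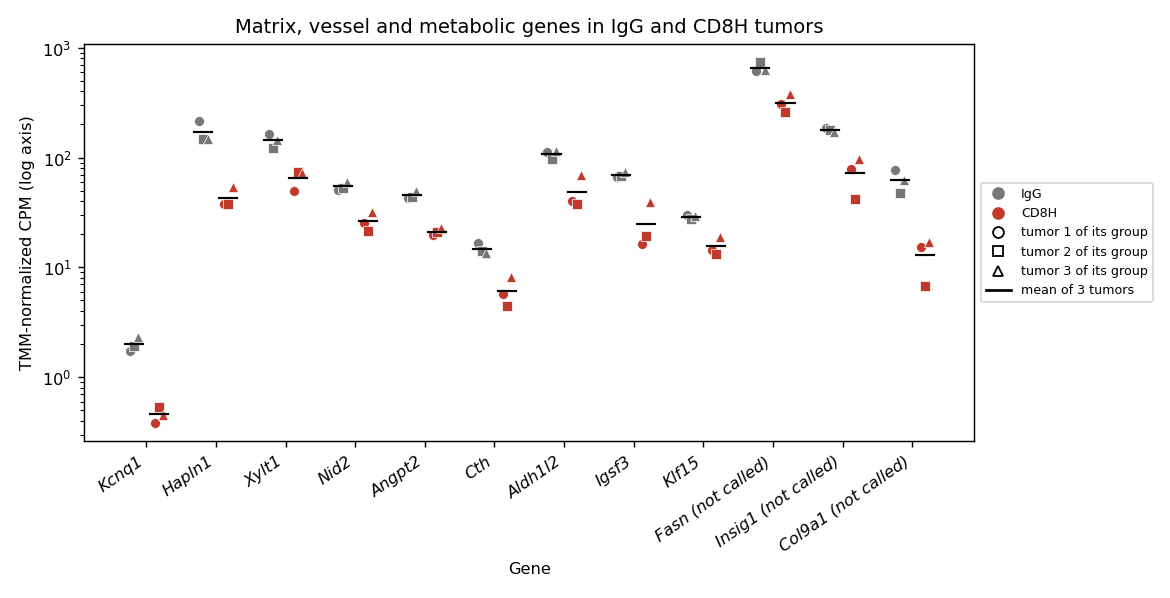
TMM-normalized CPM (log axis) of 9 genes called lower in CD8H than in IgG tumors and of 3 lipid and collagen genes that were not called, with 1 point per tumor, 1 shape per tumor number and a line at the mean of 3 tumors. Every CD8H point lies below every IgG point of its gene, and CD8H tumor 3 is the highest CD8H point of most genes.

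Many lipid synthesis genes lay lower without a call by edgeR. Of 26 sterol synthesis and uptake genes 20 lay below every IgG tumor in every CD8H tumor and none above, 19 reached an unadjusted p of 0.05 or less (8.36% of all tested genes, in this direction), and the median log2 fold change was -0.69. Insig1, a sterol-regulated retention protein of the endoplasmic reticulum, had 184, 179 and 170.1 CPM in IgG and 78.1, 41.7 and 97.6 CPM in CD8H tumors (log2 fold change -1.30 ± 0.37, edgeR adjusted p = 0.094). In Insig1 CD8H tumor 2 was the lowest. Of 14 fatty acid synthesis genes 10 lay below without overlap and 9 reached an unadjusted p of 0.05 or less. Fasn, the fatty acid synthase, had 616, 739 and 621 CPM in IgG and 309, 260.3 and 375 CPM in CD8H tumors (log2 fold change -1.07 ± 0.21, edgeR adjusted p = 0.0502). DESeq2 called 17 sterol and 8 fatty acid genes lower, and limma voom 15 and 9. The sterol list's median was -0.53 without CD8H tumor 2 and -0.88 without CD8H tumor 3.

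No gene of the citrate cycle, oxidative phosphorylation or the cell cycle was called by edgeR. Of 26 citrate cycle genes 17 lay below the controls without overlap and 15 reached an unadjusted p of 0.05 or less, at a median log2 fold change of -0.39. Cs, the citrate synthase, had 408, 452 and 467 CPM in IgG and 341, 260.1 and 351 CPM in CD8H tumors (log2 fold change -0.48 ± 0.15, edgeR adjusted p = 0.117). Of 55 nuclear genes of oxidative phosphorylation 19 lay below without overlap (median -0.29), whereas the 13 mitochondrially encoded genes all overlapped (median 0.19). Of 37 cell cycle genes 22 lay below without overlap, at a median of -0.52, or -0.26 without CD8H tumor 2. Mki67, a marker of dividing cells, had 485, 432 and 497 CPM in IgG and 344, 231 and 387 CPM in CD8H tumors (log2 fold change -0.56 ± 0.23, edgeR adjusted p = 0.217). At an unadjusted p of 0.05 or less there were 5 oxidative phosphorylation, 0 mitochondrially encoded and 15 cell cycle genes, all lower. Over all tested genes 8.36% reached this p in the lower direction, and the oxidative phosphorylation count was near that share. DESeq2 called 8 citrate cycle, 2 oxidative phosphorylation and 4 cell cycle genes lower and limma voom 13, 5 and 6, and neither called a mitochondrially encoded gene. The lowest tumor for division genes was CD8H tumor 2, with a mean log2 CPM of 5.89 over the list against 6.84 and 6.86 in the other CD8H tumors and 7.15, 7.01 and 7.15 in the IgG tumors.

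The same tumor had the lowest melanocyte and the highest brain level. The mean log2 CPM of 18 melanocyte lineage markers was 8.42, 8.42 and 8.54 in IgG and 8.42, 7.81 and 8.45 in CD8H tumors, and the summed level 27587, 24174 and 27138 CPM and 26363, 14252 and 24337 CPM. None of the 18 was called by edgeR, with 1 higher and 4 lower at an unadjusted p of 0.05 or less, and DESeq2 and limma voom each called 2 lower. Without overlap 6 (33.3%) lay below the controls, against 13.2% of all tested genes, and 1 (5.56%), Kit, above, against 14.3%. Oca2, a melanosome transporter, had 32.7, 37.1 and 35.1 CPM in IgG and 21.7, 11.4 and 24.9 CPM in CD8H tumors (log2 fold change -0.86 ± 0.24, edgeR adjusted p = 0.0869). No melanocyte marker was at 0 in any tumor. The summed level of 18 neuron markers was 229.7, 1452 and 937 CPM in IgG and 189, 2746 and 804 CPM in CD8H tumors, with only the dopamine receptor gene Drd2 at 0 in a tumor. The 14 oligodendrocyte markers summed to 666, 1393 and 933 CPM and 360.1, 2932 and 722 CPM. All 18 neuron markers overlapped between the groups, as did 13 of 14 oligodendrocyte and 10 of 11 astrocyte markers, and their medians of 0.56, 0.93 and 0.35 rested on single tumors, the oligodendrocyte median being -0.86 without CD8H tumor 2. The part of the lower melanocyte marker level of CD8H tumor 2 in the lower lipid and cell cycle levels was not tested, and the sterol median without that tumor is given above.

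CD8L and ΔNK tumors shared the IgG controls of this comparison and the same fit, so their values are set beside the CD8H values without a test. The 100 genes higher in CD8H tumors had a median log2 fold change over IgG of 1.80 in CD8H, -0.10 in CD8L and -0.86 in ΔNK tumors, and the 29 lower genes had medians of -0.91, 0.07 and 0.32. The genes were chosen by their CD8H values, so the difference between the CD8H median and the others carries no test. CD8L tumors had been set apart by few CD8+ T cells, so T cell genes below the CD8H level follow from that division. Cd8a had 4.34, 1.84 and 6.89 CPM in CD8L and 1.14, 0.182 and 0.365 CPM in ΔNK tumors. Gzmb had 13.8, 3.34 and 8.37 CPM in CD8L and 3.32, 0.485 and 1.98 CPM in ΔNK tumors. Ccl5 had 48.8, 21.9 and 33.9 CPM in CD8L and 34.9, 17.8 and 21 CPM in ΔNK tumors. Each of these values lay below the lowest CD8H tumor. Hapln1 had 292, 282 and 109 CPM in CD8L and 476, 375 and 359.9 CPM in ΔNK tumors, above the CD8H tumors in all 6. Among the lists, the median log2 fold change over IgG of the T cell receptor complex was 2.75 in CD8H, -0.22 in CD8L and -2.25 in ΔNK tumors, and that of the interferon gamma-induced genes was 1.61, 0.27 and -1.32. For sterol synthesis the medians were -0.69, 0.34 and 0.64.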

How the data were processed

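Bulk mRNA of 12 dissociated intracranial tumors was sequenced, 3 per group, with groups taken from the sample labels. The authors used STAR 2.6.1d for the alignment of paired-end reads on GRCm38.p6 and featureCounts 1.5.0-p3 for counting reads per gene, and the submitters' notes also name StringTie 1.3.3b and DESeq2 1.26.0. The authors deposited raw counts per gene, and they also deposited FPKM values, which scale the counts by gene length and library size. The strand setting and the release of the annotation were not given in the sources used here. Overlapping antisense genes cannot be told apart. In 23 tested genes the symbol had been turned into a date and was restored by Ensembl identifier.

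The contrast CD8H minus IgG was tested on the counts in R 4.3.3 with the quasi-likelihood method of edgeR 4.0.16, after TMM normalization and the filter on low counts filterByExpr. All 12 libraries entered 1 fit, which left 8 residual degrees of freedom. A gene was called where its p and its p adjusted over all tested genes (Benjamini-Hochberg) were both 0.05 or less. Standard errors are the absolute log2 fold change divided by the square root of its F statistic in this fit. Log2 CPM used a prior count of 2. Intervals of count ratios are exact 95% intervals, and 3 counts stood in for a group at 0. The steps were tested on simulated counts. Counting noise alone did not account for the spread between replicates (chi-square per degree of freedom 15.02 to 130.5).

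The comparison and the 41 gene lists were chosen with earlier results of these data known, so a list is described by its counts and median beside those of all genes. Named are the 12 largest rises and falls among called genes without overlap at a mean log2 CPM of at least 0, every called list member, the 4 or fewer members of each list that had the lowest p, genes the study names and defining cell type markers, with some other list members. Not every gene the rule selects is printed, and some are not reported here. Alternatives were DESeq2 1.42.0, limma 3.58.1 voom with quality weights, RLE and upper-quartile scaling, 2 other filters, only the 6 libraries, a block for the replicate number, the mean of 18 neuron markers as a covariate and leaving out each library. Promoter windows and motifs came from RefSeq.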

Additional observations from a re-analysis of the deposited data

How the results depend on the processing

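All 129 calls kept their direction in every alternative in which the gene was tested. None of them overlapped between the groups, so this was nearly fixed in advance and is no support. The number of calls moved. DESeq2 called 2088 genes, 1308 higher and 780 lower, and limma voom 2606, 1685 higher and 921 lower. Upper-quartile scaling gave 374 calls, 278 higher and 96 lower, no filter on low counts 300, 234 higher and 66 lower, and at least 1 CPM in 3 libraries 231, 170 higher and 61 lower. RLE size factors gave 138. The 6 libraries alone gave 0 higher and 0 lower by edgeR, with a smallest adjusted p of 0.0625 and 2766 genes at an unadjusted p of at most 0.05. The neuron covariate gave 1625, 963 higher and 662 lower, and with the 6 libraries alone, a setting chosen after seeing the data, 1959, 1442 higher and 517 lower. All 129 stayed called by DESeq2, limma voom, upper-quartile scaling and both covariate fits.

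Leaving out 1 library gave 0 to 708 calls, 0 to 611 higher and 0 to 135 lower. It was 0 without any 1 of the 3 IgG tumors, CD8L tumors 1 or 2, CD8H tumors 1 or 2 or ΔNK tumors 1 or 3, with 2121 to 3297 genes at an unadjusted p of at most 0.05. Without CD8H tumor 3 it was 225, without CD8L tumor 3 362 and without ΔNK tumor 2 708. Other tools were not run without single libraries. With the replicate number as a block 884 genes were called in 12 libraries, 725 higher and 159 lower, and 1806 in the 6 libraries alone, 1436 higher and 370 lower. The numbers share only a label. Correlations of same-numbered deviations were 0.73, 0.68 and -0.0045, and IgG tumor 3 correlated best with CD8H tumor 2 (0.24), so the numbers were not taken as pairs. No named gene's call reversed.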

Other observations

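Several gene families also lay apart. Of their members Aim2, Tlr4 and Aldh1l1 were also in the lists, and the others were not. The families were chosen after their values were seen, so they carry no test of their own. Over all tested genes 14.3% lay above the controls and 13.2% below. Among families also looked at, 1 of 10 frizzled receptors lay above and 3 below, and 2 of 11 laminin chains above and 5 below. GIMAP genes encode GTPases that support lymphocyte survival and lie in a cluster on chromosome 6. All 8 tested members lay above every IgG tumor in every CD8H tumor, and 2 were called. Gimap4 had 23, 15.1 and 14.7 CPM in IgG and 126, 56 and 55.7 CPM in CD8H tumors (log2 fold change 2.17 ± 0.35), and Gimap1 had 4.61, 3.34 and 2.99 CPM and 23.5, 11.1 and 11.3 CPM (log2 fold change 2.07 ± 0.36). The AIM2-like receptors, interferon-inducible sensors of DNA, had 13 of 13 tested members above the controls with log2 fold changes of 1.5 to 3.00, and Aim2 and Ifi214 were called. Reads of these similar genes may have been divided between them. Of 12 Toll-like receptor genes 11 lay above the controls and Tlr4 lay below, and Tlr12, which recognizes profilin of parasites, was called with 4.31, 3.57 and 4.25 CPM in IgG and 17.8, 11.2 and 10.6 CPM in CD8H tumors (log2 fold change 1.71 ± 0.32).

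Of 13 enzymes of serine, cysteine and folate metabolism 10 lay below every IgG tumor in every CD8H tumor and 1 above. Cth and Aldh1l2 were called, and the median log2 fold change was -0.61. Shmt2, which passes a carbon unit from serine to folate in mitochondria, had 324, 252 and 292 CPM in IgG and 194, 118 and 216 CPM in CD8H tumors and was not called (log2 fold change -0.72 ± 0.22, edgeR adjusted p = 0.109). Several called rises outside the lists encode signaling proteins of leukocytes. Cd38, an NAD-consuming ectoenzyme, had 6.84, 5.89 and 6.67 CPM in IgG and 45.2, 19.9 and 15.4 CPM in CD8H tumors (log2 fold change 2.05 ± 0.38). Pik3cd, the leukocyte phosphoinositide kinase delta, had 36, 31.8 and 28.7 CPM and 93, 67.9 and 55.4 CPM (log2 fold change 1.16 ± 0.22). Cblb, a ubiquitin ligase that restrains T cell activation, had 18, 12.2 and 11.4 CPM and 47.8, 36.1 and 26.1 CPM (log2 fold change 1.40 ± 0.25). Cd47, the signal that inhibits uptake by macrophages, was abundant in both groups, with 94.5, 92.3 and 84.6 CPM in IgG and 192, 204 and 143 CPM in CD8H tumors (log2 fold change 0.99 ± 0.19).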
